A study of Callithrix jacchus with 3 samples.

Results

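The genes described here encode potassium, sodium and calcium channels of the cell membrane. They were taken as every row of the count files whose marmoset Ensembl gene ID maps to a symbol that starts with KCN, with SCN and a digit, or with CACN. The rule found 93 of the 30811 gene IDs in the files, made up of 60 potassium, 12 sodium and 21 calcium channel genes. Of these, 71 encode subunits that form the pore and 22 encode auxiliary subunits. A further 33 genes in the name table have such a symbol, among them KCNK5, KCNJ11, CACNA1I and SCN2B, but their IDs are not in the files and they were not analysed here. The 93 genes are therefore not the whole of any channel family.

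The study prepared RNA libraries from cells of the common marmoset, Callithrix jacchus, that had been taken from embryonic stem cells towards an extended pluripotent state, in which stem cells are described as able to form embryonic and extraembryonic tissue. The samples form 1 group of 3 libraries, labelled as extended pluripotent stem cells and called EPSC-like here, after the design text. The titles of all 3 carry the name No40, which the labels do not explain, so any line or animal it stands for is shared by the libraries. The labels give no medium, compound, passage or time, and no parental or control cells were analysed here. Whether each library had a culture of its own is not stated in the labels, so the spread between them may be technical.

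Channels let ions cross the membrane along their gradients. Potassium channels mostly hold the membrane at a negative voltage or bring it back there, sodium channels carry the fast upstroke of the action potential, and calcium channels turn a change in voltage into calcium entry. Pluripotent stem cells do not fire action potentials as neurons and muscle cells do, and in dividing cells potassium channels are known for roles in cell volume and in passage through the cell cycle. A pore-forming subunit can need an auxiliary subunit to reach the membrane or to open normally.

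Each level is given as CPM, the counts of a gene per 1000000 counts of its library. A two-sided quasi-likelihood test of edgeR set every gene that had a count against a level of 1 CPM, and calls above or below it were made at a Benjamini-Hochberg adjusted p under 0.05. CPM is not divided by gene length, and no transcript lengths were at hand, so levels were set against 1 CPM and not ranked between genes. A long gene, such as those for the pores of sodium and calcium channels, collects more counts per RNA molecule and reaches 1 CPM more easily.

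Total counts were 52327369, 55224475 and 40593244 in replicates 1, 2 and 3, and 3 counts, the limit that a count of 0 allows, came to 0.0573, 0.0546 and 0.0736 CPM. That limit covers counting error only. All 10 matched genes of a list of 12 pluripotency markers were above 1 CPM, and POU5F1, which encodes OCT4, stood at 1044 ± 122 CPM and NANOG at 330 ± 17.2 CPM (SD, n = 3). Lists of markers of excitable and other cells were read against the 78.1% of tested genes with a symbol that were above 1 CPM. In the neuron list 10 of 14 matched genes were above it, with a summed level between 422 and 481 CPM per library, most of it from the neuronal filament gene INA at 252 ± 20.2 CPM. Among those above 1 CPM were also TUBB3, with a mean of 105 CPM, and NEFM, ELAVL3, RBFOX3 and NEFL. The synaptic gene SYT1, at 0.46 ± 0.085 CPM, and GAD2, at 0.35 ± 0.035 CPM, were the 2 genes below the level. Above it were 4 of 11 muscle genes, with a summed level of 47.8 to 61.3 CPM. The fibroblast list had 6 of 7 genes above it (478 to 682 CPM), and the neuroendocrine list 3 of 8 (84.5 to 91.2 CPM). The fibroblast gene COL1A1 had a mean of 489 CPM, and the neuroendocrine genes CHGA and CHGB had 53.1 and 29.2 CPM. INS and GCG of the neuroendocrine list had no counts. The part of such cells in the channel levels was not tested. In bulk RNA, a low level in many cells and a high level in few cannot be told apart.

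Channel genes lay on both sides of 1 CPM. Of the 93 genes, 49 were above 1 CPM, 30 below, 12 were not distinguished from it, and KCND2 and KCNK18 had no counts in any library, as had 23.9% of all genes and 3.84% of genes with a symbol. The 49 made 53.8% of the 91 channel genes tested, against 55.8% of all 23432 genes tested and 78.1% of the 12174 tested genes that have a symbol. The 30 below the level made 33.0% of those tested, against 37.6% of all genes and 15.9% of genes with a symbol. The order against all genes was reversed in the fit on genes with at least 10 counts. There 22 of 84 channel genes were below the level, a larger share than among all genes of that fit. The 48 above it were a smaller share than among all genes, as in the main fit. A call below 1 CPM does not mean silence, and KCNA3 and KCNQ1, for example, were not distinguished from 0.5 CPM. The mean was under 0.1 CPM in 13 of the 93 channel genes, against 12988 of all 30811 genes and 1343 of the 12660 with a symbol. The median of the mean levels was 1.66 CPM over the 91 channel genes, 3.26 CPM over all genes tested and 17.4 CPM over tested genes with a symbol. Together the 93 genes held 703, 712 and 595 CPM in replicates 1, 2 and 3, which is 0.0703%, 0.0709% and 0.0598% of all counts. Calcium channel genes took 51.4%, 51.6% and 52.0% of the channel counts, potassium channel genes 37.9%, 38.5% and 38.7%, and sodium channel genes 10.7%, 9.89% and 9.25%. These are shares of reads, on which long genes weigh more.

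**Figure D1:**
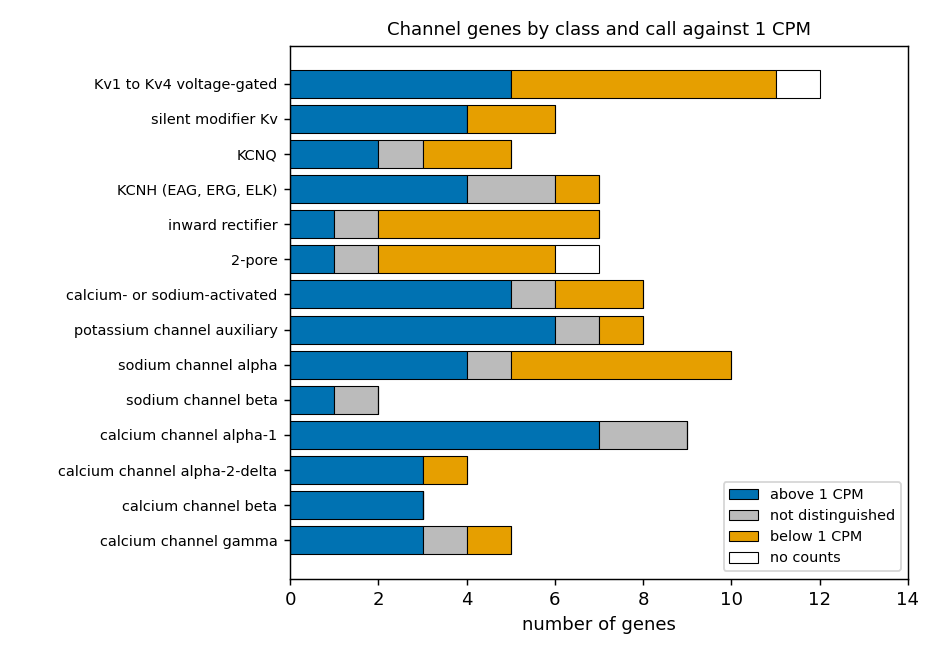
Number of channel genes in each class (rows) by call against 1 CPM, as stacked bars for genes above the level, not distinguished from it, below it and without counts in the 3 libraries. All 3 beta and 7 of 9 alpha-1 genes of calcium channels were above the level, against 1 of 7 inward rectifier and 1 of 7 2-pore potassium channel genes. CPM is not divided by gene length, and long genes, such as those for calcium channel pores, reach the level more easily.

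Among calcium channel genes, 16 of 21 were above 1 CPM, or 76.2%, against 78.1% of tested genes with a symbol. Of the 9 genes for alpha-1, the subunit that forms the pore and senses voltage, none was below it, against 15.9% of genes with a symbol. CACNA1B, the N-type channel known from transmitter release at synapses, stood at 89.0, 94.4 and 82.4 CPM in replicates 1, 2 and 3 (88.6 ± 6.02 CPM, SD, n = 3). CACNA1A, the P/Q-type channel of the same process, stood at 23.8, 22.7 and 27.1 CPM. The T-type genes analysed here, whose channels open at voltages close to rest, were both above the level, while CACNA1I of the same type was not analysed. CACNA1H had 70.0, 73.4 and 62.6 CPM and CACNA1G 38.0, 38.8 and 30.5 CPM. For these 4 genes the libraries lay close together, and the lowest single value was 22.7 CPM.

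The L-type genes, whose channels couple voltage to contraction, secretion and transcription, were less uniform in their calls. CACNA1F, known from photoreceptors, stood at 8.37, 8.11 and 9.64 CPM. CACNA1S, the skeletal muscle gene, had 6.35, 4.93 and 4.41 CPM. CACNA1C, the heart and smooth muscle gene, stood at 4.03, 3.82 and 3.56 CPM, and all 3 genes were above 1 CPM in each library. CACNA1D, the L-type gene of pacemaker and endocrine cells, had 2.37, 2.0 and 0.61 CPM, with replicate 3 the low one, and was not distinguished from 1 CPM (adjusted p = 0.0574, edgeR quasi-likelihood). Without replicate 3 it was above the level (adjusted p = 2.64e-16), in a fit on 2 libraries that ignores each gene's own spread. CACNA1E, the R-type gene, was not distinguished at 1.32, 1.35 and 0.93 CPM, and was above the level in the same fit (adjusted p = 0.0174). With replicate 1 or 2 left out, neither CACNA1D nor CACNA1E was distinguished.

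Auxiliary subunits of calcium channels were present in each class. The beta subunits sit inside the cell and carry the pore to the membrane, and all 3 analysed were above 1 CPM. CACNB4 stood at 36.7, 39.5 and 25.2 CPM, CACNB3 at 21.0, 18.3 and 21.3 CPM and CACNB1 at 7.34, 9.20 and 7.46 CPM. The alpha-2-delta subunits lie on the outer face of the membrane and raise the number of channels there. CACNA2D2 had 24.8, 23.4 and 14.7 CPM and CACNA2D3 1.78, 1.76 and 2.75 CPM. CACNA2D1 was above the level too, with 9.40 and 9.64 CPM in replicates 1 and 2, while replicate 3 had 2.33 CPM. CACNA2D4, known from the retina, was below 1 CPM with 22, 15 and 17 counts.

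The gamma group holds both partners of calcium channels and proteins that accompany AMPA-type glutamate receptors. CACNG1, a partner of the skeletal muscle channel, had 2, 0 and 0 counts and was below 1 CPM. The AMPA receptor partners CACNG2 and CACNG5 were above it, CACNG2 with 5.14, 4.67 and 5.76 CPM and CACNG5 with 8.22, 8.20 and 4.90 CPM. CACNG8, of the same group, was not distinguished at 1.43, 0.75 and 1.52 CPM. CACNG6, which resembles CACNG1, was above the level at 2.18, 2.36 and 1.40 CPM.

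**Figure D2:**
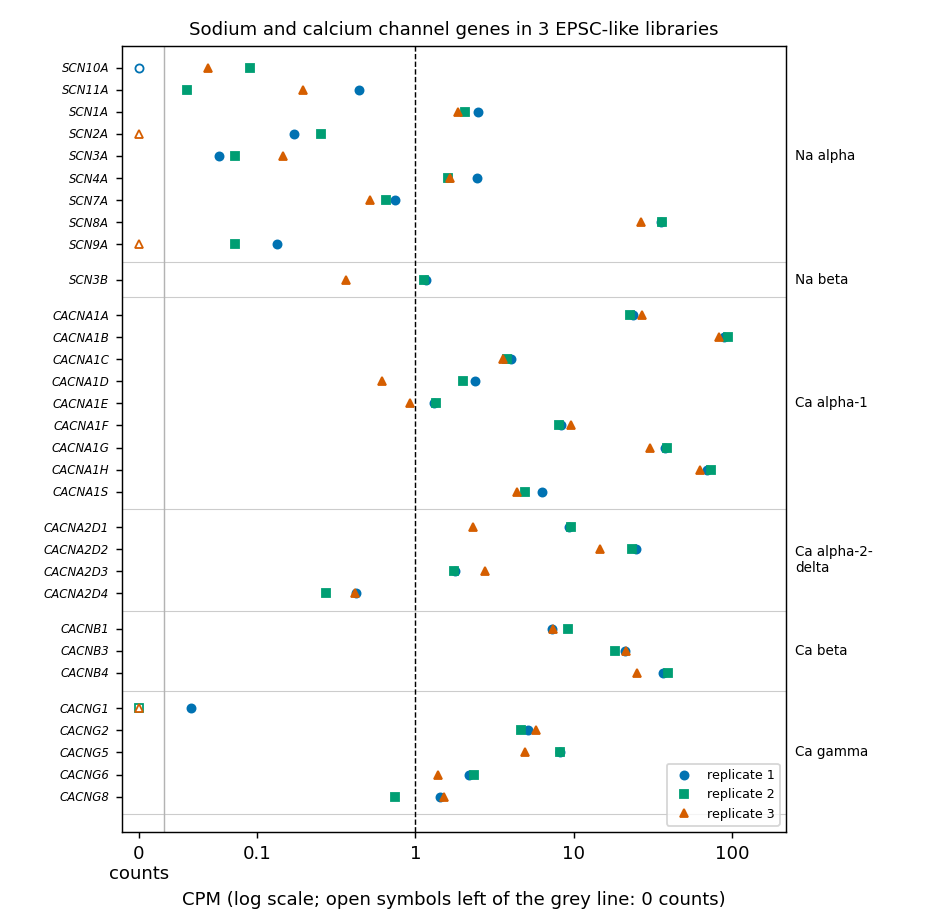
Level of the sodium and calcium channel genes described in the text (rows, grouped by class) in replicates 1, 2 and 3, in CPM on a log axis; the dashed line marks 1 CPM and open symbols at the left edge mark 0 counts. SCN8A lies between 26.6 and 35.9 CPM, while SCN2A, SCN3A, SCN9A, SCN10A and SCN11A stay at 0.44 CPM or less in each library.

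Sodium channel genes were divided, with 5 of 12 above 1 CPM, 5 below and 2 not distinguished. Each 5 made 41.7%, against 78.1% above and 15.9% below among tested genes with a symbol. The alpha subunits form the pore, and 4 of their 10 genes were above the level. SCN8A, a channel gene of the axon initial segment in neurons, stood at 35.9, 35.9 and 26.6 CPM (32.8 ± 5.36 CPM, SD, n = 3). Its lowest library was replicate 3, and all libraries were far above 1 CPM. SCN1A, a gene of inhibitory neurons, had 2.5, 2.07 and 1.86 CPM and was above the level, as was the skeletal muscle gene SCN4A at 2.45, 1.62 and 1.67 CPM. SCN4A no longer passed when replicate 1 was left out (adjusted p = 0.0537 by edgeR).

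Further alpha genes were below 1 CPM or undecided. SCN2A and SCN3A, both genes of the developing and adult brain, had 9, 14 and 0 counts and 3, 4 and 6 counts. SCN9A, a gene of sensory and sympathetic neurons, had 7, 4 and 0 counts. SCN10A, a gene of pain-sensing neurons, had 0, 5 and 2 counts, and SCN11A, of the same cells, had 23, 2 and 8 counts. Each of these 5 genes was below 1 CPM. SCN7A, whose product acts as a sensor of sodium level and not as a voltage-gated channel, was not distinguished at 0.75, 0.65 and 0.52 CPM (adjusted p = 0.0623 by edgeR, and 0.0332, below the level, when replicate 3 was left out). With replicate 1 or 2 left out SCN7A was not distinguished. The beta subunits adjust gating and bind adhesion molecules. Of the 2 beta genes 1 was above the level, and SCN3B was not distinguished, with 1.17, 1.13 and 0.37 CPM, where replicate 3 was the low library.

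Neighbouring genes did not always share a call. In the RefSeq gene order of the assembly calJac240_pri, CACNG1 and CACNG5 stand on either side of CACNG4, which was not analysed here, and were below and above 1 CPM. SCN2A and SCN3A are adjacent and were both below it, and so were KCNK16 and KCNK17. The table gives 13 such runs of adjacent channel genes, and 6 of them hold more than 1 of the genes analysed. The spans of 20 channel genes overlap another protein-coding gene in that assembly. These are CACNA1C, CACNA1H, CACNA2D3, CACNA2D4, KCNAB1, KCNAB2, KCNC4, KCND3, KCNH2, KCNH3, KCNH5, KCNH7, KCNIP1, KCNIP4, KCNJ2, KCNJ9, KCNK4, KCNT1, KCNT2 and SCN9A. The strand setting of the counting is not given in the sources used here, so reads of overlapping genes may not have been told apart and the levels of these genes are less certain.

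Potassium channel genes had 28 of 60 members above 1 CPM and 23 below, with 7 not distinguished and 2 without counts. Of the 58 tested, 48.3% were above and 39.7% below, against 78.1% and 15.9% of tested genes with a symbol. The voltage-gated subunits of the Kv1 to Kv4 subfamilies, which repolarize excitable cells, were on both sides of the level, with 5 of 12 above and 6 below. KCNC4, of a subfamily known for fast-spiking neurons, stood at 7.72, 8.22 and 4.90 CPM (6.95 ± 1.79 CPM, SD, n = 3). Its relatives KCNC1, with 12, 18 and 6 counts, and KCNC2, with 10, 7 and 2 counts, were below 1 CPM. In these 3 genes replicate 3 had the lowest CPM.

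Genes of the other Kv subfamilies were divided as well. KCNB2, a delayed rectifier, was below 1 CPM with 6, 6 and 2 counts. KCNA4, which gives a rapidly inactivating current, stood at 4.51, 5.16 and 3.65 CPM. KCNA3, the channel gene of T lymphocytes, and KCNA7 were below the level at 0.57, 0.49 and 0.39 CPM and at 0.54, 0.71 and 0.47 CPM. KCNA3 no longer passed when replicate 2 was left out (adjusted p = 0.0573 by edgeR), with a log2 difference from 1 CPM of −1.03 in both fits. KCNA7 failed when either replicate 1 (0.144) or replicate 2 (0.0671) was left out, with log2 differences of −0.75 and −0.99 in those fits on 2 libraries, against −0.80 in the fit on 3. KCND1 stood at 3.06, 3.13 and 1.84 CPM, whereas KCND3 had 3, 4 and 0 counts and KCND2 none. All 3 KCND genes encode A-type channels.

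The silent modifier subunits form no channel alone and combine with the KCNB proteins. Of their 6 genes, 4 were above 1 CPM, or 66.7%, against 78.1% of tested genes with a symbol. KCNG3 stood at 43.8, 46.3 and 26.3 CPM (38.8 ± 10.9 CPM, SD, n = 3), KCNG1 at 8.10, 8.27 and 9.17 CPM and KCNF1 at 4.82, 6.24 and 6.74 CPM. KCNS3 had 6.08, 5.69 and 4.10 CPM. KCNS1, with 2, 13 and 2 counts, and KCNV1, with 8, 10 and 7 counts, were below the level.

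In the KCNQ group, KCNQ3, whose product takes part in the M current of neurons, was above 1 CPM at 9.19, 9.53 and 5.69 CPM. KCNQ1, which serves heart muscle and epithelia, was below the level with 30, 30 and 13 counts, and KCNQ5 was below it with 23, 31 and 6 counts. In each of the 3 genes replicate 3 was the lowest library.

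Of the KCNH group, which takes in the EAG, ERG and ELK channels, 4 of 7 genes were above 1 CPM. That is 57.1%, against 78.1% of tested genes with a symbol, and 14.3% were below, against 15.9%. KCNH2, the hERG channel of cardiac repolarization, stood at 10.7, 11.7 and 10.2 CPM. The ELK gene KCNH3 stood at 18.0, 18.8 and 30.6 CPM and was higher in replicate 3 than in both other libraries. KCNH8, another ELK gene, had 4.30, 3.78 and 3.92 CPM, and the ERG gene KCNH6 had 2.33, 2.13 and 2.33 CPM. KCNH4 and KCNH5 were not distinguished, at 1.22, 1.45 and 1.25 CPM and at 1.32, 1.93 and 0.56 CPM. Both were above the level with replicate 3 left out (adjusted p = 0.0149 and 1.52e-05 by edgeR), in a fit that ignores each gene's own spread. With replicate 1 or 2 left out neither was distinguished. KCNH7, also of the ERG type, was below the level with 0, 7 and 0 counts.

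Inward rectifiers, which hold the resting potential and pass little outward current, were mostly below 1 CPM, with 5 of 7 members below it. That is 71.4%, against 15.9% of tested genes with a symbol. KCNJ4 was the 1 gene above, at 1.57, 1.82 and 1.42 CPM, and it failed the test when replicate 1 (adjusted p = 0.0605 by edgeR) or replicate 2 (0.127) was left out. KCNJ2, its relative in heart and skeletal muscle, was below the level with 31, 36 and 6 counts (adjusted p = 0.0458), a call lost when genes with under 10 counts were left out of the fit (0.0671). Of the subunits of channels opened by G proteins, KCNJ3 had 4, 7 and 4 counts, KCNJ5 8, 14 and 6, and KCNJ9 13, 4 and 14, all below 1 CPM. The fourth such gene, KCNJ6, had 31, 38 and 6 counts and was not distinguished (adjusted p = 0.0528). It was below the level when replicate 1, 2 or 3 was left out (adjusted p = 0.0324, 0.0177 and 0.0116, in fits on 2 libraries). KCNJ16, a gene of kidney and other epithelia, had 6, 0 and 0 counts.

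2-pore channels carry the background potassium leak, and here too 1 of 7 genes was above 1 CPM. Of the members with counts, 16.7% were above and 66.7% below, against 78.1% and 15.9% of tested genes with a symbol. KCNK6 stood at 30.8, 33.4 and 25.7 CPM (29.9 ± 3.94 CPM, SD, n = 3). KCNK2, a leak channel opened by stretch and lipids, was not distinguished at 1.43, 1.65 and 0.83 CPM. It was above the level with replicate 3 left out (adjusted p = 0.000115 by edgeR), in a fit that ignores each gene's own spread. With replicate 1 or 2 left out KCNK2 was not distinguished. Its relatives KCNK4, with 11, 15 and 12 counts, and KCNK10, with 12, 9 and 13 counts, were below the level. So were KCNK17, with 31, 18 and 20 counts, and KCNK16, with 2, 4 and 5 counts, and KCNK17 no longer passed with replicate 2 left out (0.0965). KCNK18, known from sensory neurons, had no counts. No library of any of these 6 genes reached 2 CPM.

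Potassium channels opened by calcium or sodium inside the cell had 5 of 8 genes above 1 CPM. That is 62.5%, against 78.1% of tested genes with a symbol. All 4 KCNN genes, whose small- and intermediate-conductance channels sense calcium through calmodulin, were among the 5. KCNN1 stood at 23.9, 23.0 and 24.0 CPM, with libraries that differed little (23.6 ± 0.53 CPM, SD, n = 3). KCNN2 had 2.5, 2.18 and 2.23 CPM, KCNN3 had 3.0, 2.75 and 2.23 CPM, and KCNN4, the gene of blood cells and epithelia, had 1.62, 1.80 and 2.58 CPM. KCNMA1, the large-conductance channel gene, was not distinguished at 1.53, 1.20 and 0.69 CPM. It was above the level with replicate 3 left out (adjusted p = 0.00964 by edgeR), in a fit that ignores each gene's own spread. With replicate 1 or 2 left out it was not distinguished. Of the sodium-activated pair, KCNT2 stood at 12.3, 11.7 and 9.66 CPM and KCNT1 was below the level with 5, 12 and 14 counts. KCNU1, a gene of sperm, had 0, 0 and 4 counts.

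Auxiliary subunits of potassium channels had 6 of 8 genes above 1 CPM, a share close to the 78.1% of tested genes with a symbol. KCNIP2, a calcium-binding partner of the KCND channels, stood at 6.96, 7.37 and 6.96 CPM. KCNIP3 had 2.54, 2.20 and 1.20 CPM and KCNIP4 1.13, 1.33 and 1.89 CPM, and KCNIP1 was not distinguished at 0.76, 0.76 and 0.59 CPM. The KCNAB genes, whose products attach to the inner face of KCNA channels, had values between 1.10 and 2.16 CPM. KCNAB3 stood at 1.84, 2.16 and 1.81 CPM, KCNAB1 at 1.72, 1.22 and 1.72 CPM and KCNAB2 at 1.93, 1.71 and 1.10 CPM. KCNE4, the 1 KCNE gene matched by name, was below the level with 2, 2 and 0 counts. When replicate 1 was left out, KCNIP4, KCNAB1 and KCNAB2 no longer passed (adjusted p = 0.0689, 0.156 and 0.204 by edgeR). KCNIP4 and KCNAB2 failed in the same way when replicate 2 was left out (0.122 and 0.109), and KCNIP4 also when replicate 3 was (0.101).

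**Figure D3:**
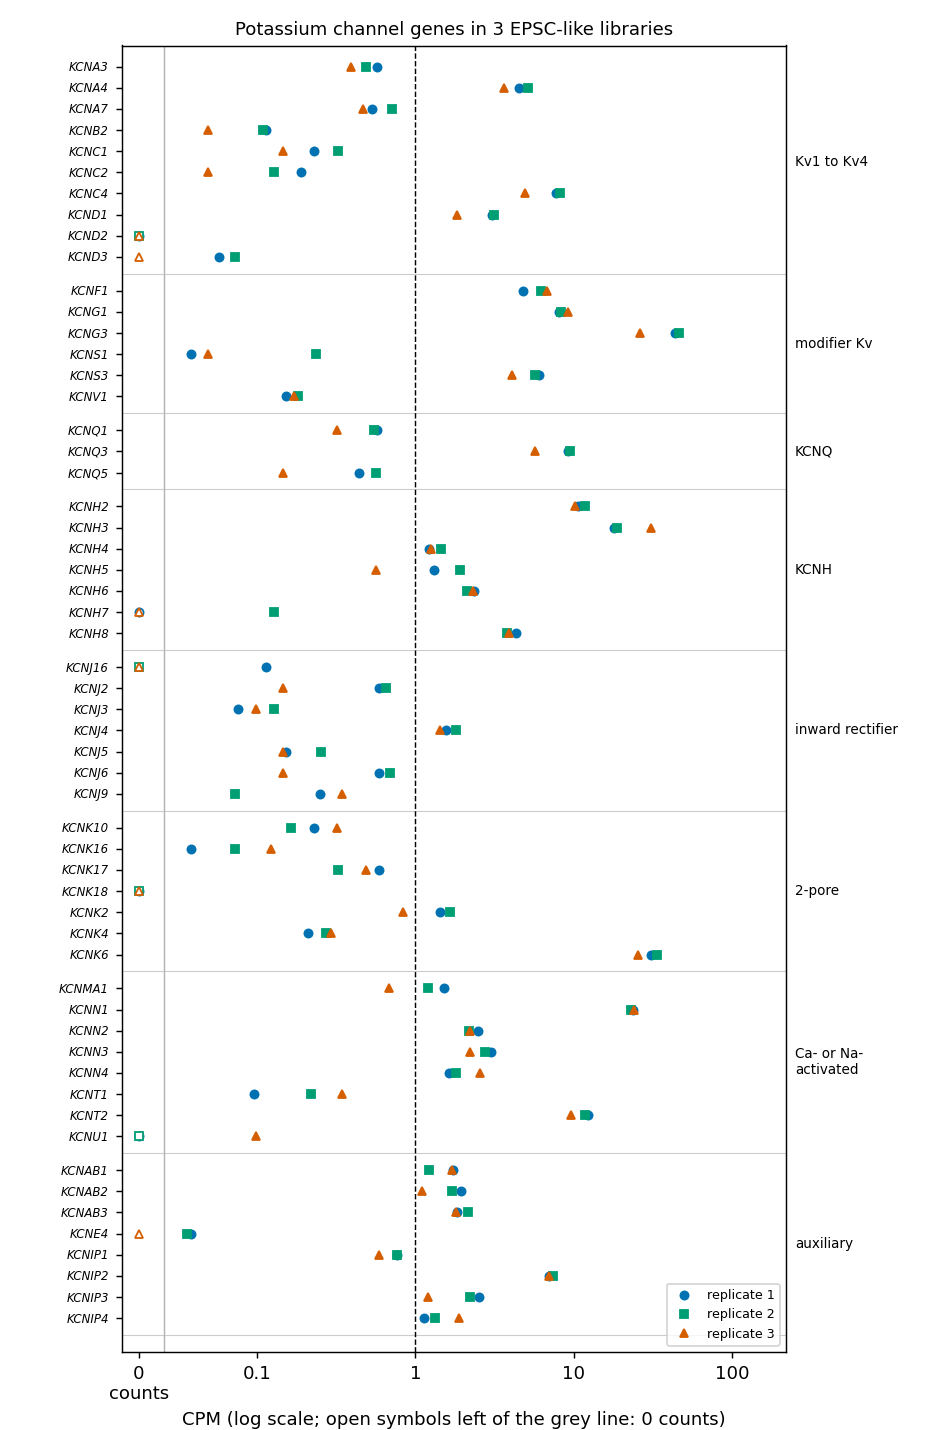
Level of the potassium channel genes described in the text (rows, grouped by class) in replicates 1, 2 and 3, in CPM on a log axis; the dashed line marks 1 CPM and open symbols at the left edge mark 0 counts. KCNG3, KCNK6, KCNN1 and KCNH3 lie above 17 CPM in each library, and KCND2 and KCNK18 have 0 counts in each.

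Subunits that form channels together could be set side by side. The pore, beta and alpha-2-delta genes that make up a complete high-voltage calcium channel were each above 1 CPM in at least 3 members. KCND1 was above it with KCNIP2, KCNIP3 and DPP6, a further KCND partner gene that stood at 13.8 ± 2.67 CPM (SD, n = 3). KCNIP4 was above it too (adjusted p = 0.0424 by edgeR). It lost the call with DESeq2 (adjusted p = 0.0596), among genes with at least 10 counts (0.0501 by edgeR) and with any library left out. ABCC8, the sulfonylurea receptor gene whose pore partner KCNJ11 was not analysed here, stood at 11.5 ± 1.34 CPM. These are levels of RNA in bulk cells and do not show which subunits were in the same cell.

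The median ratio of replicate 3 was somewhat lower in channel genes than in other genes, while 2-fold differences were about as frequent. Over the 57 channel genes whose mean was 1 CPM or more, the median log2 ratio of replicate 3 to the mean of replicates 1 and 2 was −0.29, against −0.10 over the 9825 genes with a symbol and −0.05 over all 13719 genes at that level. Replicate 3 was below both others in 35 of the 57 genes, or 61.4%, against 55.3% of genes with a symbol and 50.7% of all genes. It was at least 2-fold lower than both in 3 of them, or 5.26%, against 4.65% of genes with a symbol and 4.24% of all genes. No channel gene was at least 2-fold higher, against 27 of the 9825 genes with a symbol and 0.758% of all genes. The 3 lower genes were CACNA2D1, CACNA1D and KCNH5. CACNA2D1, with 492, 530 and 95 counts, was the only one at least 4-fold lower, against 0.554% of all genes, at 0.246 times the mean of the others. CACNA1D stood at 0.285 and KCNH5 at 0.353 times that mean. The largest ratio upward was that of KCNH3, at 1.66. The median coefficient of variation over the libraries was 17.1% in channel genes and 12.8% in all genes at that level. Between replicates 1 and 2, the median absolute log2 ratio was 0.13 in channel genes and 0.06 in all genes at that level. The part of counting error in this spread was not tested. The summed level of the fibroblast list was 682, 639 and 478 CPM in replicates 1, 2 and 3 and that of the neuron list 422, 434 and 481 CPM, and their part in the ratios was not tested.

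**Figure D4:**
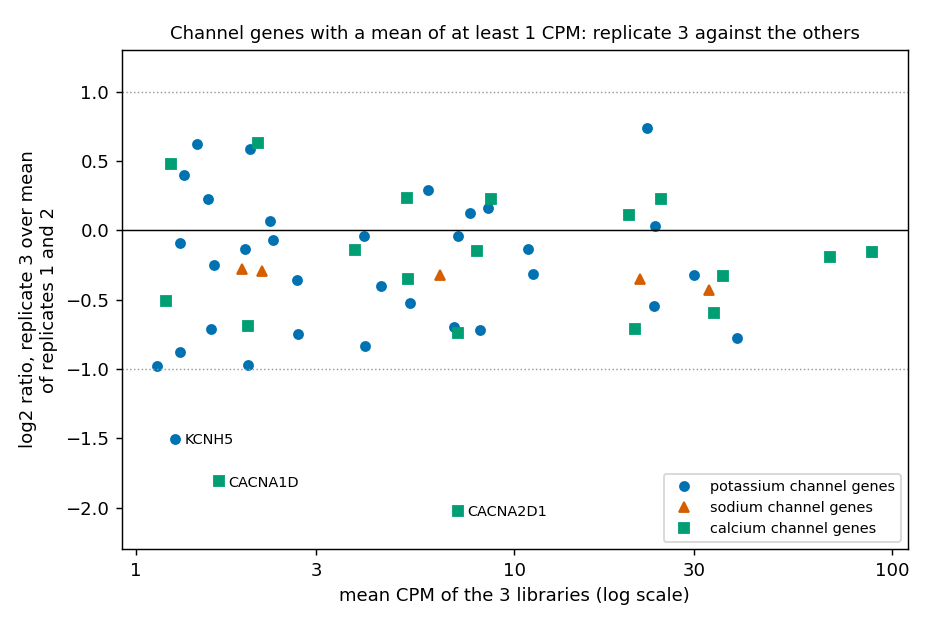
Log2 ratio of replicate 3 to the mean of replicates 1 and 2 (vertical axis) against the mean CPM on a log axis, for the 57 channel genes whose mean was 1 CPM or more; dotted lines mark 2-fold. CACNA2D1, CACNA1D and KCNH5 lie under the lower line, no gene lies over the upper one, and 35 genes were below both other libraries in replicate 3.

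Genes that work beside these channels were taken from 4 lists of 81 genes, of which 64 were in the files with a symbol. Above 1 CPM were 48 of the 64 and below it 9, which is 75% and 14.1%, close to the 78.1% and 15.9% of all tested genes with a symbol. The pumps and exchangers that set the sodium and calcium gradients had 16 of 19 genes above the level. ATP2A2, which loads calcium into the endoplasmic reticulum, stood at 392 ± 57.1 CPM and ATP1B3, a beta subunit of the sodium-potassium pump, at 158 ± 13.2 CPM (SD, n = 3). SLC8A3, a sodium-calcium exchanger gene, was below the level with 7, 2 and 5 counts. Of the genes for release and store-operated entry of calcium, 11 of 12 were above it. The receptor gene ITPR3 stood at 118 ± 8.79 CPM, and MCU and MICU2 of the mitochondrial calcium uniporter at 69.3 ± 3.17 and 61.6 ± 0.21 CPM. RYR3 was below the level at 0.37 ± 0.073 CPM.

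Other cation channels were above 1 CPM in 11 of 15 genes, or 73.3%, against 78.1% of tested genes with a symbol. TRPM7, a channel that is also a kinase, stood at 99.8 ± 17.9 CPM, the lysosomal channel gene TPCN1 at 77.2 ± 20.8 CPM and the stretch-activated channel gene PIEZO1 at 75.6 ± 5.70 CPM (SD, n = 3). NALF1, a partner of the sodium leak channel, was below the level at 0.49 ± 0.28 CPM. NALCN, the leak channel itself, had 21, 24 and 52 counts and was not distinguished. Direct partners of the channels were above 1 CPM in 10 of 18 genes. That is 55.6%, a smaller share than the 78.1% of tested genes with a symbol, and 22.2% were below, against 15.9%. The calmodulin gene CALM2 stood at 634 ± 28.1 CPM. The ankyrin genes ANK3 and ANK2, whose products anchor channels to the cytoskeleton, stood at 95.3 ± 22.5 and 31.4 ± 2.67 CPM. LRRC52, a partner of the sperm channel KCNU1, had 0, 4 and 0 counts.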

How the data were processed

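RNA was measured in 3 libraries of 1 group, with replicate numbers from the sample titles. Reads were trimmed, aligned and counted by the authors, and the submitters' processing notes name featureCounts 1.5.2, STAR 2.5.3a and Trim Galore 0.4.0. Of the build, annotation, strand setting and handling of multi-mapped reads, the sources used here say nothing. The authors deposited counts with a row for each Ensembl gene, all whole numbers with a total that differs between libraries, and these were taken as raw. Symbols came from a name table that matched 12660 of 30811 IDs.

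CPM was scaled by TMM in edgeR 4.0.16, run in R 4.3.3 with limma 3.58.1. The 23432 genes with at least 1 count were tested against 1 CPM by an intercept-only edgeR quasi-likelihood fit with trended dispersion, with the F statistic computed from the deviances, tested on simulated data first. P-values were adjusted by Benjamini-Hochberg over all of them. They rest on counting error and on the spread between these libraries, part of which the fit takes from other genes. No variation beyond these libraries is covered. Ratios of replicate 3 used 0.5 added counts. Alternatives used DESeq2 1.42.0, other levels, filters and sets of libraries. Figures used matplotlib 3.10.9.

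The members, lists and tests were chosen with earlier results of these data known. Some genes that the counts include are not reported here by name, also where the rule would name them. Of the rest, named were, per class, up to 4 members of highest mean CPM above the level, the lowest member, all not distinguished or without counts, and those at least 4-fold apart in replicate 3. Up to 3 highest and the lowest were named per partner list. The other channel genes, DPP6, ABCC8, NALCN and the markers were named after their values were seen. No transcript lengths or sequences were at hand, so length-scaled levels and promoters were not analysed here.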

Additional observations from a re-analysis of the deposited data

How the results depend on the processing

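No paired analysis was possible because the samples make up 1 group. The count of channel genes above 1 CPM was 49, and 48 with DESeq2, 48 among genes with at least 10 counts, 49 with no TMM factor or with halved counts, 45 with replicates 1 and 2 summed, and 44 to 54 with 1 library left out. The count below was 30, and between 22 and 32 under those alternatives. Of the 49 genes above, 44 kept the call in all 8 other fits at 1 CPM. Of the 30 below, 23 were tested in each of those fits and 19 kept the call, while KCNA3, KCNA7, KCNJ2 and KCNK17 lost it by the test. Below the level were 2 calcium channel genes, 1 to 2 with a library left out and 1 among genes with at least 10 counts, since CACNG1 then had too few counts to be tested.

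The choice of level moved the counts most. Of all channel genes, 58 were above 0.5 CPM and 20 below it, and 34 were above 2 CPM and 40 below it. At 2 CPM, 17 potassium and 3 sodium channel genes were above it, and 4 calcium channel and 15 partner genes were below. At 0.5 CPM, 3 sodium channel, 1 calcium channel and 3 partner genes were below. With 4-fold in place of 2-fold, 1 channel gene was apart in replicate 3.

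For genes with estimates between the levels, the log2 difference changed sign, which follows from the level chosen and is not a call. KCNN4, for example, was not distinguished from 2 CPM (adjusted p = 0.987 by edgeR). Against 2 CPM the log2 difference was −0.255 for CACNA1D, −0.731 for CACNA1E, −0.0077 for CACNG6, −0.700 for CACNG8, −0.366 for KCNAB1, −0.332 for KCNAB2, −0.0424 for KCNAB3, −0.607 for KCNH4, −0.640 for KCNH5, −0.0057 for KCNIP3, −0.469 for KCNIP4, −0.315 for KCNJ4, −0.603 for KCNK2, −0.802 for KCNMA1, −0.0025 for KCNN4 and −0.0623 for SCN4A. Against 0.5 CPM it was 0.202 for KCNA7, 0.507 for KCNIP1, 0.845 for SCN3B and 0.363 for SCN7A. Against 1 CPM with 1 library left out it ran from −0.0710 to 0.701 for KCNH5, from −0.0726 to 0.446 for KCNMA1 and from −0.399 to 0.197 for SCN3B.

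With 2 libraries left, a fit ignores the spread of single genes. Length-scaled levels and matching by synonyms were not run, as the tables hold no transcript lengths, older symbols or Ensembl links.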
